A study of Mus musculus with 12 samples.

Results

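The ADAM family was taken as every row of the expression table whose gene symbol is Adam followed by a number, with or without a letter, which leaves out the Adamts genes. This gave 33 genes of the 20788 in the table. RNA-seq had been carried out on testes of F1 mice, in 4 groups with 3 libraries each. In the knockdown group, fathers had received a lentivirus that lowers lncRNA5251 (a long RNA that codes for no protein), and in its control, 3NC, the LV3 vector of that virus without this insert. For the overexpression group the virus raised lncRNA5251, with the LV5 vector alone as control (5NC). According to the methods of the study, males of the parent generation were injected at 4 weeks of age and the offspring were examined at 8 weeks, whereas the design text says that virus was put into the F1 testes. The strain is "IRC mouse" in the labels and ICR in the methods, and no group without virus was analysed here. No label states that the libraries of a group are from separate animals, so p-values reflect only how far these libraries spread, and that spread may be technical. lncRNA5251 has no row under that name, so its level was not checked.

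ADAM proteins (a disintegrin and metalloprotease) sit in the cell membrane. A prodomain, a metalloprotease domain and a disintegrin domain lie outside the cell. Members with an intact zinc-binding site in the protease domain cut other membrane proteins and release their outer part, which is called shedding, while members that lost the site act through binding. In the mouse, many members are made mainly in developing germ cells and reach the sperm surface. The most studied are ADAM2 and ADAM3, which sperm need to pass from the uterus into the oviduct and to bind the egg coat. By their known sites of expression, 20 members were classed as testis-enriched, 7 as widely expressed (Adam9, Adam10, Adam12, Adam15, Adam17, Adam19 and Adam33), 3 as nervous system genes (Adam11, Adam22 and Adam23) and 3 as genes of immune cells or the epididymis (Adam7, Adam8 and Adam28). Of the testis-enriched class, 3 further genes (Adam36, Adam37 and Adam38) had no row under those names.

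The 4 most abundant members in testis lacked the zinc-binding site, so its sequence is shown for the members on which the levels below turn. The site was searched in each translated coding sequence as HEXGHXXGXXH, where X is any residue, H histidine, E glutamate and G glycine. For each member 30 coding bases from the first histidine codon are printed from the genome build GRCm38 with the coding models of GENCODE vM21, 5′ to 3′ on the coding strand. Capitals mark the codons of the first histidine, the glutamate and the second histidine where the member keeps them. Where the motif was absent, the bases aligned with those of Adam24 are given. The 4 members with the site are Adam24 (chr8:40680518-40680547, plus strand), Adam1a (chr5:121520092-121520121, minus strand), Adam10 (chr9:70754296-70754325, plus strand) and Adam17 (chr12:21336735-21336764, minus strand).
Adam24: CATGAGataggtCACaatttgggcatgtca
Adam1a: CACGAGctcgggCACaacctgggtatccag
Adam10: CATGAAgttggaCATaactttggatctcca
Adam17: CATGAAttgggaCATaattttggagcagaa
The members without it are Adam5 (chr8:24806452-24806481), Adam3 (chr8:24707421-24707450), Adam32 (chr8:24901504-24901533), Adam2 (chr14:66053844-66053873) and Adam29 (chr8:55872377-55872406), all on the minus strand.
Adam5: cagctgctgagcattggtatgggcttaact
Adam3: cagttgctgggaattaacctggggttggca
Adam32: caaatgctggggctcagtctggggatatcg
Adam2: cagctgctgagcctcagcatggggctagcg
Adam29: CATcacttaggtCATaatttgggcatgaaa
Adam5, Adam3, Adam32 and Adam2 kept 0 of the 3 codons, and Adam29 kept 2. The whole motif was found in 20 of the 33 members. It was present in 7 of 7 widely expressed members, in 11 of 20 testis-enriched members and in 0 of 3 nervous system members, and in Adam8 and Adam28 but not in Adam7.

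The testis-enriched members fell into 2 kinds by gene structure. In 15 of them the whole coding sequence lies in 1 exon (Adam1a, Adam1b, Adam4, Adam6a, Adam6b, Adam20, Adam21, Adam24, Adam25, Adam26a, Adam26b, Adam29, Adam30, Adam34 and Adam39). The other 5 (Adam2, Adam3, Adam5, Adam18 and Adam32) have 19 to 22 coding exons, and none of the 5 holds the zinc motif, which 11 of the 15 single-exon genes do. All 13 members outside the testis-enriched class have several coding exons. On chromosome 8, Adam18, Adam3, Adam5, Adam32 and Adam9 follow one another on the minus strand between 24602246 and 25017040, with 715 bases between Adam3 and Adam5 and 692 bases between Adam32 and Adam9. A second stretch of the same chromosome, from 40675077 to 40826861, holds the single-exon genes Adam24, Adam25, Adam20 and Adam39. A further stretch, from 43519864 to 43665560, holds Adam26b, Adam26a and Adam34. Adam1b and Adam1a lie 15168 bases apart on chromosome 5, and Adam6b and Adam6a lie 52072 bases apart on chromosome 12.

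Depth was 12719699 to 15771655 estimated reads per library. Marker genes of spermatocytes and of round and elongating spermatids were high in every library (summed CPM of 6 genes each of at least 916.9, 1020 and 12400), as the tissue label says. CPM is the read count scaled to a common library size. 3NC replicate 2 and knockdown replicate 1 stood apart, with 7 white blood cell markers summing to 358.6 and 337.5 CPM, against 45.3 to 66.5 CPM in the other 10 libraries. Leaving out these or other single libraries moved several of the fold changes below, and values without them are given beside those. Of the 33 members, 32 had enough reads for the test and Adam28 did not.

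The 4 most abundant members were all testis-enriched genes with several coding exons and no zinc motif. Levels between genes are compared in FPKM (fragments per kilobase of transcript, scaled to depth), as computed by the authors. Adam5 had a mean of 573.7 FPKM over the 12 libraries (lowest 491.1, median 554.9, highest 657.2), which is above 99.4% of tested genes. Adam3 followed at 514.6 FPKM (456.2, 500.0 and 570.8), and its range overlapped with that of Adam5, although Adam5 was the higher of the pair in 12 of 12 libraries. Adam32, another sperm-lineage member, had 373.3 FPKM (328.5, 357.3 and 443.2), and Adam2, the beta subunit of the sperm protein fertilin, had 183.0 FPKM (162.0, 180.0 and 212.8). The ranges of Adam32 and Adam2 overlapped with no other member. These 4 genes made up 69.5% to 75.2% of the summed FPKM of the family in each library.

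The next ranks were held by both fertilin alpha genes. Adam1a, whose protein stays in the endoplasmic reticulum of germ cells and pairs there with ADAM2, had a mean of 95.9 FPKM (lowest 81.6, highest 107.0), and Adam1b, whose protein pairs with ADAM2 on sperm, had 64.9 FPKM (58.7 to 73.2). Their ranges did not overlap. Adam18 (55.9 FPKM), Adam6a (53.5 FPKM) and Adam24 (52.7 FPKM) followed with ranges that overlapped one another. Adam6a and Adam6b are genes needed for male fertility that lie within the immunoglobulin heavy chain locus, and ADAM24 is a protease of the sperm surface. Adam6b, Adam4, Adam39, Adam20, Adam25, Adam30, Adam26a and Adam29 lay between 23.0 and 35.8 FPKM, each overlapping with its neighbours, and Adam21 had 17.0 FPKM. The lowest testis-enriched members were Adam34 (9.03 FPKM) and Adam26b (7.74 FPKM).

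Among widely expressed members Adam10, the shedding protease of Notch receptors and of many adhesion molecules, was the most abundant at 9.78 FPKM (6.99 to 17). It was the only member outside the testis-enriched class whose mean exceeded that of a testis-enriched member, namely Adam34 and Adam26b, and its range overlapped with both. Adam15 had 6.50 FPKM (4.85 to 9.74), Adam9 had 6.23 FPKM (4.24 to 11.2) and Adam17, which releases tumour necrosis factor from cells, had 5.65 FPKM (4.43 to 8.96). Their ranges overlapped, so their order is not set by these data. Adam19, Adam12 and Adam33 lay between 0.27 and 0.64 FPKM. Of the nervous system genes, Adam22, a receptor for LGI proteins, had 4.96 FPKM, Adam11 had 4.16 FPKM and Adam23 had 0.948 FPKM.

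The median of the mean levels was 35.1 FPKM for the 20 testis-enriched members and 5.65 FPKM for the 7 widely expressed members, beside 6.44 FPKM for all tested genes. Per kilobase of GENCODE exons, in scaled CPM, the class medians were 31.9 and 3.00. A mean above 10 FPKM was reached by 18 members, all testis-enriched, and by 40.8% of tested genes, and a mean above 100 FPKM by 4 members and by 7.41% of tested genes. Within the testis-enriched class the median was 373.3 FPKM for genes with several coding exons and 29.9 FPKM for single-exon genes. Members without the zinc motif had a median of 55.9 FPKM and members with it 28.3 FPKM, with overlapping ranges. Members without the motif carried 80.7% to 85.1% of the summed testis-enriched FPKM in each library. On chromosome 8 the neighbours Adam32 (373.3 FPKM) and Adam9 (6.23 FPKM), both on the minus strand and 692 bases apart, held very different levels. These are differences between genes and not between groups, and were not tested.

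**Figure D1:**
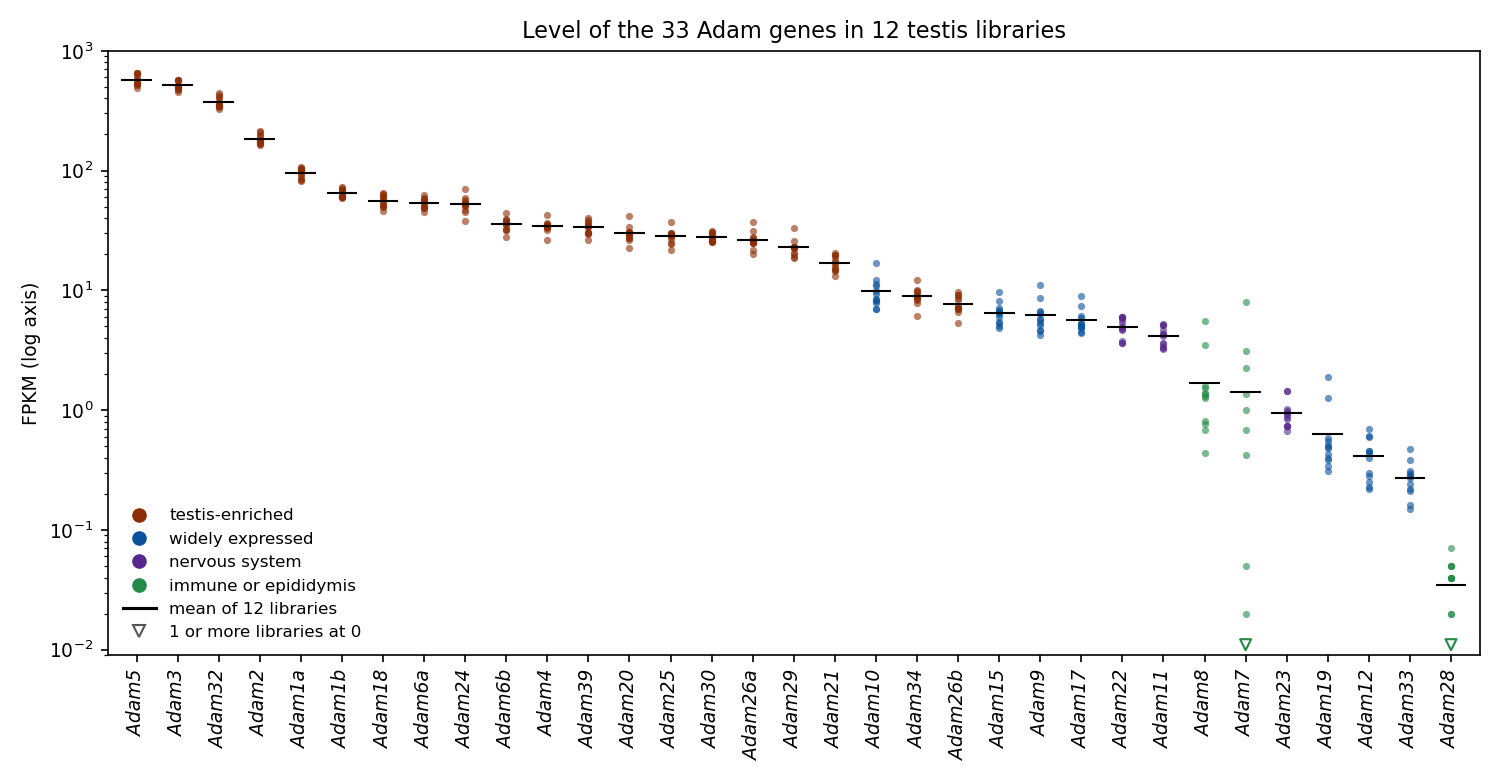
FPKM (log axis) of the 33 Adam genes, ordered by their mean, with 1 point per library, a bar for the mean of 12 libraries and colours for the classes; an open triangle marks a gene with 1 or more libraries at 0. The 18 highest means belong to testis-enriched members, and Adam10 is the only member of another class that lies among that class.

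The sum of the testis-enriched FPKM was 46.2 to 100 times that of the widely expressed FPKM, with a median of 83.1 over the 12 libraries. The ratio was lowest in 3NC replicate 2 (46.2) and knockdown replicate 1 (50.7) and lay between 77.9 and 100 in the other 10 libraries. These are the same 2 libraries that were high in white blood cell markers. They also had the lowest sums of elongating spermatid markers (12400 and 12970 CPM, against 13120 to 18030 CPM elsewhere). 3NC replicate 2 was the highest library for Sertoli cell markers (199.0 CPM) and endothelium markers (49.6 CPM), and knockdown replicate 1 was not (134.4 and 39.5 CPM). Adam10 had 71.8 CPM in 3NC replicate 2 and 53.0 CPM in knockdown replicate 1, and 32.2 to 49.3 CPM elsewhere. Adam9 had 40.6 and 32.5 CPM in those 2 libraries and 16.7 to 25.1 CPM elsewhere, and Adam17 had 36.5 and 31.4 CPM against 19.4 to 25.7 CPM. In contrast, the summed testis-enriched FPKM of these libraries (2223 and 2013) was within or just under the range of the others (2086 to 2542). In bulk samples, a higher number of cells of a type and more RNA per cell cannot be told apart.

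By edgeR over the 12 libraries, no member passed the test in any comparison, and other fits called Adam7 and Adam1a in overexpression against 5NC alone. The comparison of the knockdown group with 3NC asked which members changed with the knockdown virus. By edgeR's quasi-likelihood test with Benjamini-Hochberg adjustment over 16388 genes, 0 of 32 members had an adjusted p under 0.05, beside 0.0% of all tested genes. DESeq2 called 0 members too, beside 0.0985% of all genes, as did limma-trend on FPKM, beside 0.0%, and at an unadjusted p under 0.05 there was 1 member, Adam7, beside 5.64% of all genes. The testis-enriched members had a median log2 fold change of -0.10, beside -0.02 for all genes, and 19 of 20 were below 0, beside 53.3% of all genes. 3NC replicate 3 was the highest of the 12 libraries for 18 of these 20 genes, and without it that median was 0.04. It was -0.19 without 3NC replicate 2, -0.058 without knockdown replicate 1 and -0.15 without both. All 3 knockdown libraries were below all 3 3NC libraries for Adam5, Adam7 and Adam18 (3 of 32 members, beside 6.36% of all genes) and above them for 0 members (4.95% of all genes).

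Adam5, picked with its values in view, lay near the lower end of the testis-enriched fold changes (-0.28 in Adam29 to 0.08 in Adam39). It had 1547, 1507 and 1856 CPM in the 3 3NC libraries and 1293, 1465 and 1436 CPM in the 3 knockdown libraries. Every knockdown value lay under the lowest 3NC value. The log2 fold change was -0.23 (SE 0.11, edgeR adjusted p = 0.764), and -0.11 without 3NC replicate 3. Adam3, the member with the most even group means of all, had 1348 ± 156 CPM (SD, n = 3) in 3NC, 1376 ± 103 CPM in 5NC, 1255 ± 97.2 CPM in the knockdown group and 1337 ± 124 CPM in the overexpression group. With knockdown the log2 fold change of Adam3 was -0.10 (SE 0.11, edgeR adjusted p = 0.803), 0.0064 without 3NC replicate 3 and -0.17 without 3NC replicate 2. Adam21, a testis protease, had 55.2, 46.9 and 57.8 CPM in 3NC and 45.4, 37.9 and 49.8 CPM in the knockdown group, which overlapped. Its log2 fold change was -0.27 (SE 0.13, edgeR adjusted p = 0.764), and -0.17 without knockdown replicate 2. Adam11 (log2 fold change 0.23, SE 0.22, edgeR adjusted p = 0.791) and Adam15 (0.19, SE 0.19, adjusted p = 0.791) had the smallest p among members that were higher. Adam11 ranged from 0.09 without 3NC replicate 2 to 0.48 without 3NC replicate 1, and Adam15 from 0.011 without knockdown replicate 1 to 0.32 without knockdown replicate 2.

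The comparison of the overexpression group with 5NC asked which members changed with the overexpression virus. By edgeR, 0 of 32 members passed, beside 0.311% of all genes, and 9 members had an unadjusted p under 0.05, beside 11.9% of all genes. DESeq2 called 1 member, Adam7, beside 2.02% of all genes, and limma-trend on FPKM called 0, beside 0.527%. Without 3NC replicate 2 and knockdown replicate 1, edgeR called 2 members, Adam7 and Adam1a, beside 0.968% of all genes. The direction divided the testis-enriched members by gene structure. Of the 15 single-exon genes, 13 were above 0, with a median log2 fold change of 0.30, and of the 5 genes with several coding exons 0 were above 0, with a median of -0.09. The median of all genes was -0.01, and 48.2% of all genes were above 0. All 3 overexpression libraries were above all 3 5NC libraries for 9 of the 15 single-exon genes and for 0 of the 5 others, and with Adam8 for 10 of the 32 members, beside 11.3% of all genes. They were below them for Adam7 alone (1 of 32, beside 10% of all genes).

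Adam1a had the smallest p of the testis-enriched genes in this comparison. It had 247.4, 234.6 and 240.7 CPM in 5NC and 308.1, 304.1 and 305.4 CPM in the overexpression group. The 5NC libraries were also below all libraries of 3NC (305.2, 250.7 and 331.3 CPM) and of the knockdown group (271.1, 316.6 and 296.2 CPM). The log2 fold change of overexpression against 5NC was 0.34 (SE 0.10, edgeR adjusted p = 0.18), and it was 0.34 with an adjusted p of 0.0464 without 3NC replicate 2 and knockdown replicate 1. With both vector controls as the control it was 0.20, with an adjusted p of 0.69. Adam1b had 184.3 to 196.8 CPM in 5NC and 169.8 to 196.8 CPM with overexpression, and the log2 fold change was -0.08 (SE 0.10, edgeR adjusted p = 0.82), with -0.14 to -0.038 when an overexpression library was left out. The ratio of Adam1a to Adam1b in FPKM was 1.18 ± 0.0438 (SD, n = 3) in 5NC and 1.59 ± 0.131 in the overexpression group, with 1.54 ± 0.0609 in 3NC and 1.64 ± 0.0645 in the knockdown group. The 3 ratios of 5NC (1.14 to 1.23) lay below the other 9 (1.44 to 1.72). Adam1a and Adam1b share 45.9% and 45% of the 50-base stretches of their coding sequences, so reads may have been split between them in a way the files do not show.

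Other single-exon genes had their lowest group mean in 5NC as well. Adam24 had 102.7, 125.3 and 120.6 CPM in 5NC and 152.6, 144.6 and 163.1 CPM in the overexpression group, and Adam24 shares no 50-base stretch with another member. The log2 fold change was 0.40 (SE 0.14, edgeR adjusted p = 0.288). Adam39 had 59.6, 66.8 and 67.8 CPM in 5NC and 85.8, 80.8 and 89.6 CPM in the overexpression group, with a log2 fold change of 0.40 (SE 0.13, edgeR adjusted p = 0.263). The 5NC and overexpression groups did not overlap for these genes, whereas 5NC overlapped with 3NC for Adam39 (69.1, 66.4 and 97.8 CPM in 3NC). Adam6b had 58.5, 66.0 and 66.6 CPM in 5NC and 76.4, 83.2 and 84.4 CPM with overexpression, and the log2 fold change was 0.35 (SE 0.12, edgeR adjusted p = 0.263). Adam22 had the smallest p among members that were lower, apart from Adam7, with 20.9 ± 1.81 CPM (SD, n = 3) in 5NC and 17.1 ± 3.85 CPM in the overexpression group, with overlap. The log2 fold change of Adam22 was -0.29 (SE 0.19, edgeR adjusted p = 0.606), -0.15 without overexpression replicate 2 and -0.47 without overexpression replicate 3.

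The vector controls were then compared with each other, which asked how far 2 groups with no lncRNA5251 cargo differed. This comparison shares its 5NC libraries with the overexpression comparison and its 3NC libraries with the knockdown comparison, so its values are not independent of theirs. By edgeR, 0 of 32 members passed, beside 0.128% of all genes, and 10 members had an unadjusted p under 0.05, beside 10.8% of all genes. DESeq2 called 0 members, beside 1.06% of all genes, and limma-trend on FPKM 0, beside 0.18%. Single-exon genes had a median log2 fold change of -0.30 in 5NC against 3NC, with 13 of 15 below 0 (54.0% of all genes), and genes with several coding exons a median of 0.09, with 4 of 5 above 0 (46.0% of all genes). Without 3NC replicate 3 the median of all 20 testis-enriched members went from -0.28 to -0.071, and without 3NC replicate 2 and knockdown replicate 1 to -0.40. All 3 5NC libraries were below all 3 3NC libraries for Adam1a, Adam6b, Adam21, Adam24 and Adam25 (5 of 32, beside 6.18% of all genes), and above them for Adam22 (1 of 32, beside 6.8%). Adam1a, Adam6b, Adam24 and Adam25 were lower in each 5NC library than in each of the 9 other libraries (4 of 32, beside 3.08% of all genes).

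The values of Adam25, Adam6b and Adam21 show the same order. Adam25 had 53.3, 59.0 and 60.8 CPM in 5NC and 72.6, 62.6 and 98.1 CPM in 3NC (log2 fold change -0.43, SE 0.13, edgeR adjusted p = 0.305). Adam6b had 80.2, 74.1 and 99.4 CPM in 3NC, and its log2 fold change in 5NC against 3NC was -0.41 (SE 0.12, edgeR adjusted p = 0.285). 3NC replicate 3 was the highest library for both, and without it these fold changes were -0.22 and -0.27. Adam21 had 39.9, 40.1 and 40.9 CPM in 5NC, under all 3NC and overexpression libraries but not under knockdown replicate 2 (37.9 CPM). The knockdown fold change minus the overexpression fold change of Adam21 was -0.63 on the log2 scale (SE 0.18, edgeR adjusted p = 0.785). For Adam6b it was -0.49 (SE 0.17, adjusted p = 0.9999), for Adam22 0.38 (SE 0.27, adjusted p = 0.9999; 0.24 without overexpression replicate 2) and for Adam7 4.58 (SE 2.17, adjusted p = 0.9999). The value of Adam7 turned to -1.91 without knockdown replicate 1. Of the 32 members, 0 passed the test of that difference, beside 0.0244% of all genes, and 5 had an unadjusted p under 0.05, beside 4.63%. DESeq2 called 0 members, beside 0.259% of all genes, and limma-trend 0, beside 0.0386%. In the test of any difference among the 4 groups, 0 members passed by edgeR, beside 0.238% of all genes, by DESeq2, beside 3.53%, or by limma-trend, beside 0.296%, and 6 had an unadjusted p under 0.05, beside 11.4%. Adam22 had 21.7, 18.9 and 22.3 CPM in 5NC and 16.02, 18.0 and 13.2 CPM in 3NC (log2 fold change 0.41, SE 0.19, edgeR adjusted p = 0.473).

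**Figure D2:**
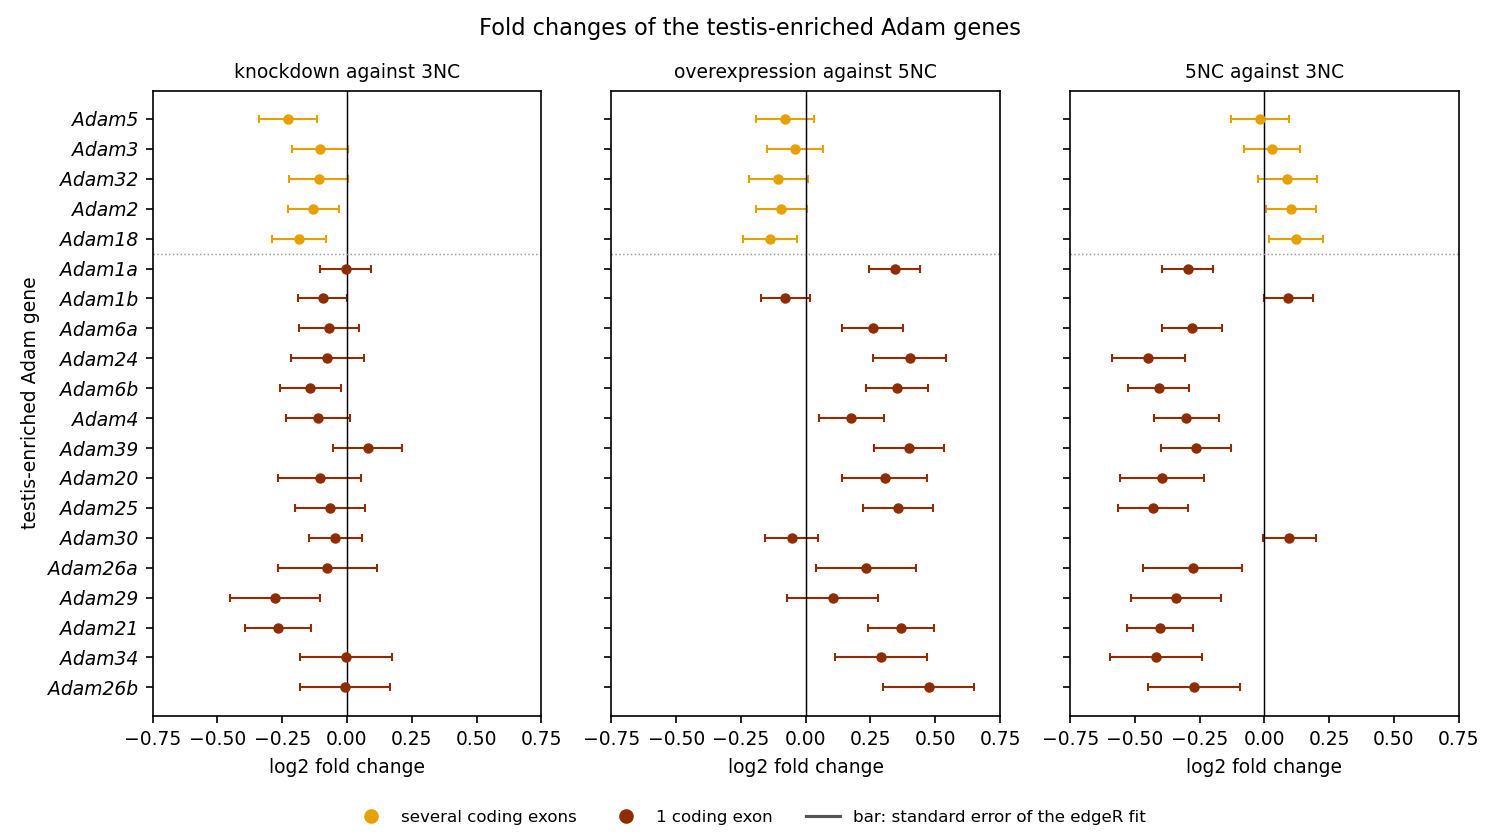
Log2 fold changes of the 20 testis-enriched genes in 3 comparisons, with bars for the standard error; dark red marks 15 single-exon genes and yellow 5 genes with several coding exons. In overexpression against 5NC 13 of the 15 lie above 0 and 0 of the 5 do, and none of these members passed by edgeR over the 12 libraries.

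Because the comparisons share controls, the levels of both kinds of gene were set side by side in each library. The summed CPM of the 15 single-exon genes was divided by that of the 5 genes with several coding exons. This ratio was 0.292, 0.270 and 0.276 in the 3 5NC libraries. It was 0.343, 0.313 and 0.360 in 3NC, 0.370, 0.368 and 0.343 in the knockdown group and 0.355, 0.355 and 0.330 in the overexpression group. The 3 5NC libraries were thus the lowest of the 12, and the other groups overlapped. In 5NC replicate 1 the single-exon sum was the lowest of all libraries (1188 CPM), whereas in 5NC replicates 2 and 3 the sum of the other kind was among the 4 highest (4784 and 4742 CPM). The ratio was set after the fold changes had been seen, so it was not tested.

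**Figure D3:**
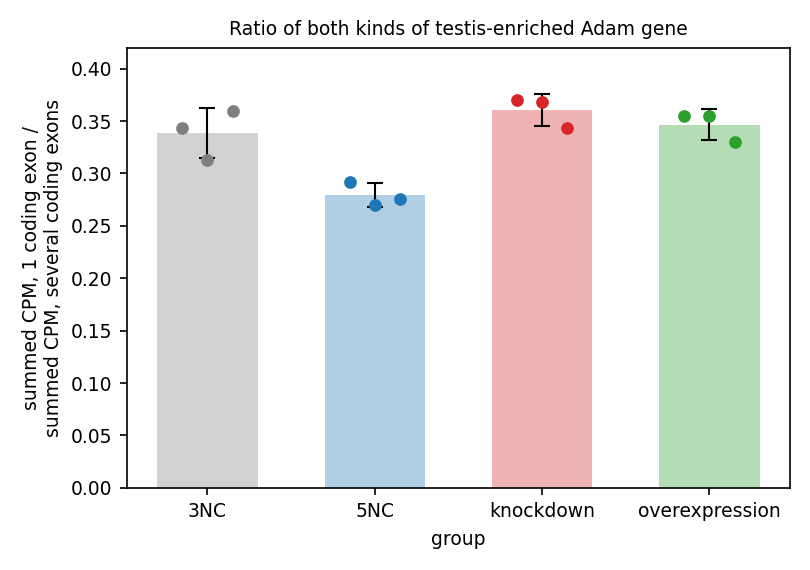
Ratio of the summed CPM of 15 single-exon to 5 several-exon testis-enriched genes, with a point per library, bars from 0 to the group mean and error bars for the SD (n = 3). The 5NC libraries (0.270 to 0.292) lie below the other 9 libraries (0.313 to 0.370).

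Germ cell marker sums were set beside these sums. The 4 libraries with the highest sum of several-exon genes were 3NC replicate 3 (5005 CPM), 5NC replicates 2 and 3, and overexpression replicate 3 (4741 CPM), and the other 8 had 3674 to 4186 CPM. The same 4 libraries had the highest sums of 6 spermatocyte markers (1137, 1249, 1121 and 1156 CPM, against 916.9 to 989.7 CPM in the others). Of these markers, Sycp1, Sycp3 and Hormad1 were each highest in those 4 libraries. Piwil1 was not (364.0 to 396.2 CPM there, 303.5 to 433.4 CPM in the others), and nor were Spo11 and Dmc1. Depth was 13847277, 13699547 and 12719699 estimated reads in 5NC replicates 2 and 3 and overexpression replicate 3. In the other libraries, 3NC replicate 3 among them, depth was 15188804 to 15771655. The sum of 6 round spermatid markers was 1085, 1117 and 1099 CPM in 5NC, 1211 to 1295 CPM in the overexpression group, 1185 to 1319 CPM in the knockdown group and 1020 to 1357 CPM in 3NC. The sums of 6 elongating spermatid markers did not follow the several-exon sums, with 13120 to 15310 CPM in those 4 libraries and 12400 to 18030 CPM in the others, and 5NC (13120 to 16500 CPM) overlapped with the overexpression group (13690 to 17150 CPM). Spermatogonia markers summed to 96.0 to 107.4 CPM in those 4 libraries and 83.9 to 108.4 CPM in the others. In overexpression against 5NC, 6 of 6 round spermatid markers were above 0, with a median log2 fold change of 0.22, and 0 passed (Tex101 is also in the list of sperm ADAM maturation used below). Of 6 elongating spermatid markers 4 were above 0 and 2 below, with a median of 0.11, and 0 passed. The highest of these were Odf1 (0.55) and Oaz3 (0.38). Of 6 spermatocyte markers 3 were above 0 and 3 below, with a median of -0.10, and 1 passed, beside 0.311% of all genes. This was Spo11, which makes the DNA breaks of meiosis, with a log2 fold change of -0.51 (edgeR adjusted p = 0.0452). Spo11 did not pass with the replicate number as a block (log2 fold change -0.51, adjusted p = 0.0811) or when any of 9 libraries was left out, and its adjusted p ranged up to 0.369 over the alternatives. In knockdown against 3NC, 5 of 6 spermatocyte markers were below 0, with a median log2 fold change of -0.14, and 6 of 6 round spermatid markers above 0, with a median of 0.11. In 5NC against 3NC, 6 of 6 spermatocyte markers were above 0, with a median of 0.14, and 5 of 6 round spermatid markers below 0, with a median of -0.11. None of these passed. The parts of germ cell make-up and of depth in the values of the ADAM genes were not tested.

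Across the 12 libraries, members of one kind followed one another. Pearson's r of log2 CPM had a median of 0.91 over the 10 pairs of several-exon genes, 0.73 over the 105 pairs of single-exon genes and 0.26 over the 75 pairs between kinds. The ranges overlapped, with 0.85 to 0.96, 0.03 to 0.97 and -0.21 to 0.91. The libraries share depth and cell make-up, and these values are a description. Single-exon members that did not follow their kind were Adam1b, with a median r of 0.85 with the several-exon genes and 0.15 with the other single-exon genes, and Adam30, with 0.85 and 0.28. Adam1b and Adam30 were also the single-exon genes below 0 in overexpression against 5NC. The r values and the fold changes come from the same libraries, so they are not independent. Adam24 and Adam25 followed the other single-exon genes most closely (0.88 and 0.89).

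**Figure D4:**
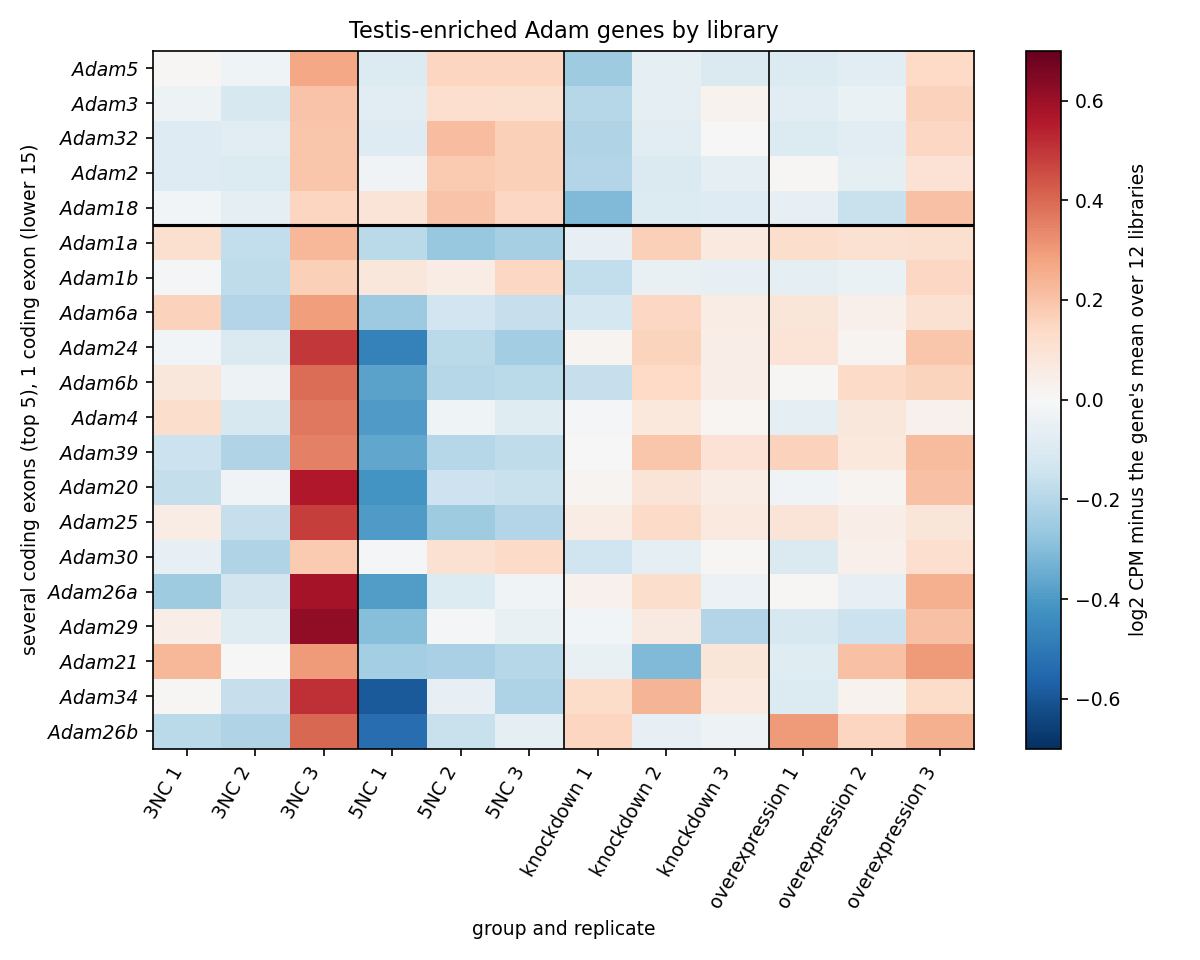
Log2 CPM of the 20 testis-enriched genes minus each gene's mean over 12 libraries, with genes in rows (5 several-exon genes above the line, 15 single-exon genes below it) and libraries in columns by group. 3NC replicate 3 is high for both kinds, the 3 5NC columns are low for 13 of the single-exon genes, and Adam1b and Adam30 resemble the upper rows.

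The widely expressed members had a median log2 fold change of -0.35 in knockdown against 3NC, with 6 of 7 below 0. Adam10 had 42.2, 71.8 and 39.0 CPM in 3NC and 53.0, 32.2 and 32.2 CPM in the knockdown group. The groups overlapped, and the highest library of each was the one with high white blood cell markers. The log2 fold change of Adam10 was -0.38 (SE 0.26, edgeR adjusted p = 0.764), and -0.33 without those 2 libraries (adjusted p = 0.904). Adam9, which sheds growth factors and adhesion molecules, had -0.35 (SE 0.28, edgeR adjusted p = 0.77) and Adam17 had -0.17 (SE 0.22, adjusted p = 0.835). Without 3NC replicate 2 alone these were -0.016 for Adam9, 0.090 for Adam17 and -0.056 for Adam10, and without knockdown replicate 1 alone -0.71, -0.41 and -0.66. Without those 2 libraries the median of the class was -0.17, still with 6 of 7 below 0. In overexpression against 5NC the class had a median of -0.07, with 6 of 7 below 0. In 5NC against 3NC the median was -0.27, with 5 of 7 below 0, and without those 2 libraries it was 0.06, with 6 of 7 above 0.

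Near-identical copies limit the reading of single members. Estimated counts were not whole numbers for 12 members. These were Adam1a, Adam1b, Adam4, Adam6a, Adam6b, Adam20, Adam25, Adam26a, Adam26b, Adam28, Adam34 and Adam39. The way in which reads were shared between copies is not stated in the sources used. All of these genes but Adam4 and Adam28 share 50-base stretches of coding sequence with another member, from 13% in Adam34 to 45.9% in Adam1a. Adam4 is thus among the genes with no such stretch, although its counts were not whole numbers. The 5 single-exon genes with no such stretch (Adam4, Adam21, Adam24, Adam29 and Adam30) had a median log2 fold change of 0.18 in overexpression against 5NC, with 4 of 5 above 0, and the 10 with shared stretches 0.32, with 9 of 10 above 0. In 5NC against 3NC the medians were -0.34 and -0.29. Over the 10 testis-enriched genes of both kinds with no shared stretch, the median was -0.048 in overexpression against 5NC.

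Adam7, whose protein is made by the epididymis and passed to sperm, varied most of all members. It had 1.37, 26.1 and 10.2 CPM in 5NC and 0.00, 0.07 and 0.16 CPM in the overexpression group, and 4.57, 7.02 and 3.51 CPM in 3NC against 2.21, 0.00 and 0.00 CPM in the knockdown group. The groups did not overlap in either comparison. The 5NC libraries held 536 reads and the overexpression libraries 3, which after scaling is a ratio of 173 with an exact 95% interval of 58.9 to 842, and 3NC held 234 reads and the knockdown group 35, a ratio of 6.64 with an interval of 4.64 to 9.76. 5NC replicate 2 held 371 of the 536 reads, and without it the ratio was 78.5 (26.4 to 385). These intervals cover counting error only. The fitted log2 fold change was -7.31 (SE 1.66, edgeR adjusted p = 0.105) in overexpression against 5NC and -2.73 (SE 1.21, adjusted p = 0.764) in knockdown against 3NC, and with so few reads its size depends on the prior count. For overexpression it was -6.20 without 5NC replicate 2, -8.24 without overexpression replicate 3 and -4.30 by limma-trend on log2 FPKM. For overexpression, the adjusted p was 0.0103 by DESeq2, 0.04995 without knockdown replicate 1 and 0.0388 without that library and 3NC replicate 2, and over all alternatives it ranged from 0.0103 to 0.408. In knockdown against 3NC the log2 fold change was -9.22 without knockdown replicate 1, the only knockdown library with reads.

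The summed markers of the epididymis followed the same libraries. Their sum over 8 genes was 13.8, 287.6 and 121.8 CPM in 5NC, 1.05 to 1.33 CPM in the overexpression group, 41.0, 75.3 and 31.8 CPM in 3NC, and 17.4, 1.13 and 1.96 CPM in the knockdown group. The 7 libraries with over 1 CPM of Adam7 had the same order for Adam7 and for these markers. Crisp1, a secreted protein of the epididymis, made up most of the sum, with 239.2 CPM in 5NC replicate 2 and 0.0793 to 0.197 CPM in the overexpression group, and Spink8, Spint3 and Rnase9 were also highest in 5NC replicate 2. The other 4 markers were at or near 0, with Lcn8 at 0 in all 12 libraries, Lcn5 at 0 in 11 of them, Gpx5 at 0 to 0.135 CPM and Defb20 at 0 to 0.215 CPM, and these did not follow Adam7. Of the 4 epididymis markers tested in overexpression against 5NC, 4 were below 0, with a median log2 fold change of -5.38. Spint3 alone passed (log2 fold change -3.51, edgeR adjusted p = 0.0206), beside 0.311% of all genes. Its level was low, with 0.998, 2.955 and 1.932 CPM in 5NC and 0.0658, 0.266 and 0.159 CPM in the overexpression group. Spint3 did not pass with both vector controls, with the replicate number as a block (log2 fold change -3.50, adjusted p = 0.0552), or without 5NC replicate 2 or 3 or any 1 of the overexpression libraries. The part of epididymal tissue in the values of Adam7 was not tested.

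Adam8, a protease of white blood cells, was highest in the 2 libraries with high white blood cell markers. It had 15.7 CPM in 3NC replicate 2 and 10.3 CPM in knockdown replicate 1. The remaining values were 2.05 and 3.92 CPM in 3NC, 4.85 and 4.25 CPM in the knockdown group, 2.43, 1.27 and 2.29 CPM in 5NC and 4.67, 3.996 and 4.05 CPM in the overexpression group. All overexpression libraries were above all 5NC libraries, and the white blood cell sums were 51.7 to 66.5 CPM against 49.2 to 52.1 CPM. The log2 fold change was 1.08 (SE 0.64, edgeR adjusted p = 0.551), and in 5NC against 3NC it was -1.85 (SE 0.64, adjusted p = 0.357), or -0.57 without 3NC replicate 2 alone. Without 3NC replicate 2 and knockdown replicate 1 these were 1.08 (adjusted p = 0.0982) and -0.57 (adjusted p = 0.457). Adam28, a lymphocyte member, had 0 to 0.286 CPM and was not tested.

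**Figure D5:**
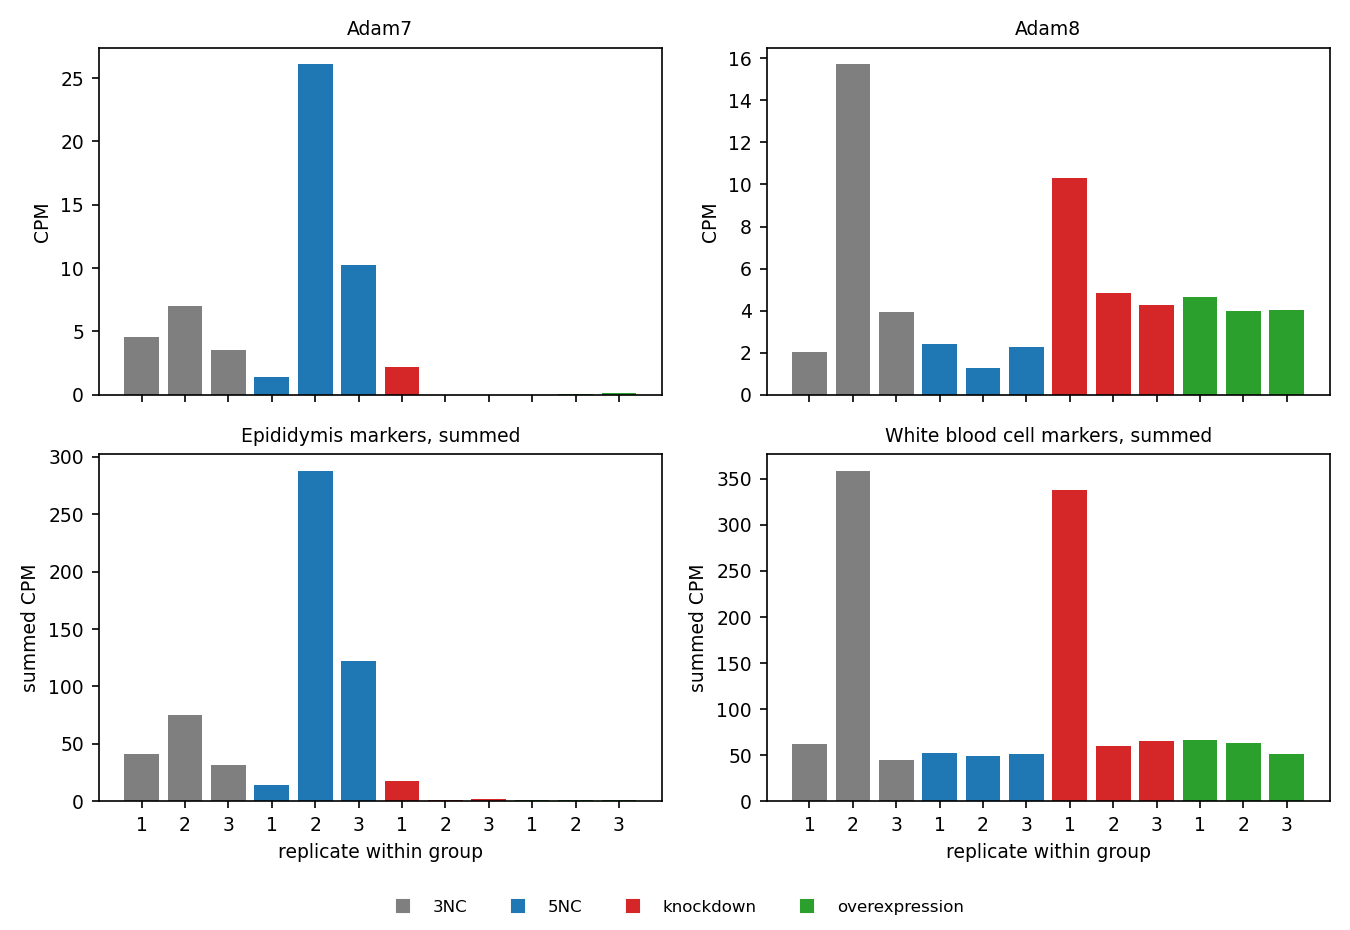
CPM of Adam7 and Adam8 in each library (upper bars) above the summed CPM of 8 epididymis markers and of 7 white blood cell markers (lower bars), coloured by group. Adam7 and the epididymis sum are highest in 5NC replicate 2 (26.1 and 287.6 CPM) and near 0 in all overexpression libraries, and Adam8 and the white blood cell sum are highest in 3NC replicate 2 and knockdown replicate 1.

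Genes that act on ADAM proteins were examined next, from lists of the maturation of sperm ADAMs, of partners and substrates of ADAM10 and ADAM17, and of ligands of ADAM22 and ADAM23. None passed by edgeR in any comparison (0 of 13, 0 of 18, 0 of 17 and 0 of 2 tested genes), nor by DESeq2 or limma-trend on FPKM. At an unadjusted p under 0.05 there were at most 3 genes of a list in a comparison, which were substrates in overexpression against 5NC (3 of 17, beside 11.9% of all genes, and 0 of 17 at an adjusted p under 0.05, beside 0.311%). Pmis2 of the first list had no row under that name. The maturation list holds chaperones and surface proteins without which ADAM3 or ADAM2 do not reach the sperm surface, and 10 of its 13 genes were above 80 FPKM, among them Clgn (calmegin, a chaperone of the endoplasmic reticulum) with 224.7 FPKM, Ace with 158.9 FPKM and Calr3 with 84.0 FPKM. The other 3, Tpst2 (3.62 FPKM), Rnase10 (2.68 FPKM) and Pgap1 (1.43 FPKM), were below the median of tested genes. Pdilt, a partner of CALR3 in folding ADAM3, had 203.2 ± 44.8 CPM (SD, n = 3) in 3NC and 153.1 ± 16.2 CPM in 5NC (log2 fold change -0.41, edgeR adjusted p = 0.347, and -0.20 without 3NC replicate 3), and its log2 fold change in overexpression against 5NC was 0.27 (adjusted p = 0.478). Cmtm2b had 416.1 ± 1.75 CPM in 5NC and 353.8 ± 9.35 CPM in the overexpression group, with a log2 fold change of -0.23 (edgeR adjusted p = 0.354). In knockdown against 3NC the smallest p were those of Ly6k, a surface protein (log2 fold change 0.25, edgeR adjusted p = 0.764), and Pgap1 (-0.21, adjusted p = 0.766), which were 0.13 and -0.11 without 3NC replicate 2. The list's median was between -0.02 and 0.05 in the 3 comparisons.

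Of the partners, Tspan5, a tetraspanin that escorts ADAM10, had 28.5 ± 1.95 CPM (SD, n = 3) in 5NC and 22.7 ± 1.33 CPM in the overexpression group, with a log2 fold change of -0.33 (edgeR adjusted p = 0.177). Timp1, an inhibitor of metalloproteases, had a log2 fold change of -2.35 in 5NC against 3NC (edgeR adjusted p = 0.459), which was 0.21 without 3NC replicate 2. Timp4 had 0.75 in overexpression against 5NC (adjusted p = 0.378), Tspan17 had 0.27 in 5NC against 3NC (adjusted p = 0.469), and Pcsk4, a convertase of germ cells, and Timp3 had 0.43 and -0.35 in knockdown against 3NC (both adjusted p = 0.764). Without 3NC replicate 2 these were 0.27 and -0.07, and without knockdown replicate 1 Timp3 had -0.53. Of the substrates, Cdh2 (N-cadherin, an adhesion protein between Sertoli and germ cells) had 75.2 ± 3.82 CPM in 5NC and 56.2 ± 6.17 CPM in the overexpression group, with a log2 fold change of -0.42 (edgeR adjusted p = 0.249), and -0.29 in knockdown against 3NC (adjusted p = 0.764; -0.18 without 3NC replicate 1). Jag1, a Notch ligand, had 37.5 ± 4.63 CPM in 5NC and 45.8 ± 3.74 CPM in the overexpression group, with a log2 fold change of 0.29 (edgeR adjusted p = 0.397), and -0.33 in 5NC against 3NC (adjusted p = 0.41). Dll1 (0.53, adjusted p = 0.764, knockdown against 3NC) and Nrg1 (0.38, adjusted p = 0.653, 5NC against 3NC; 0.24 without 5NC replicate 2) did not pass either. Lgi2, of the secreted LGI ligands, had a log2 fold change of -0.48 in knockdown against 3NC (edgeR adjusted p = 0.764), and -0.10 in overexpression against 5NC (adjusted p = 0.902), which was 0.01 without overexpression replicate 1. Lgi4 had 0.12 in the former (adjusted p = 0.877) and 0.14 in the latter (adjusted p = 0.842), which ranged from 0.01 without 5NC replicate 2 to 0.28 without overexpression replicate 1. In the test of the difference of both effects, the smallest p of each list and direction belonged to genes such as Dll1 (0.86 on the log2 scale, 0.56 without 5NC replicate 3), Timp4 (-0.81, and -0.48 without 3NC replicate 1), Jag1 (-0.41), Tspan5 (0.35) and Calr3 (-0.33), each with an edgeR adjusted p of 0.9999.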

How the data were processed

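RNA-seq was analysed in 12 testis libraries, 3 in each of 4 groups, with groups and replicate numbers taken from the sample titles. Per the methods, the authors enriched messenger RNA with oligo(dT) beads (the labels name total RNA), aligned reads with SOAPaligner, and called genes with DEGseq. The labels name build mm10, which is the same assembly as GRCm38. The deposited table has unscaled estimated counts for each gene, with fractions for 17.3% of genes in at least 1 of the 12 libraries, and FPKM values that the authors had computed. The sources used do not state how reads were shared among genes, or whether strand was used. The table's 18 further per-sample columns and the authors' columns of their own comparisons were not used.

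Estimated counts were rounded. Genes with few reads were removed with filterByExpr (4400 genes, 16388 kept), libraries were scaled by TMM (factors 0.955 to 1.06), and edgeR 4.0.16 in R 4.3.3 gave quasi-likelihood F-tests (glmQLFit, glmQLFTest) from 1 fit of the 12 libraries with 1 coefficient for each group. Benjamini-Hochberg adjustment ran over all tested genes, and calls were made under 0.05. Common dispersion corresponded to a coefficient of variation of 22.9% between libraries (8 residual and 3.37 prior degrees of freedom). The standard error of a fold change is its size divided by the square root of F. The 2 groups of a virus and its vector, the vector controls and the difference of the 2 virus effects were compared. Depth was 12719699 to 15771655 estimated reads, so members of few reads have wide counting intervals. No 2 libraries of a group agreed within sampling noise (lowest chi-square per degree of freedom 3.44).

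Coding models were those of GENCODE vM21, positions of genes those of RefSeq, and shared sequence was counted as identical 50-base stretches of coding sequence between members only. Members named with values were the 6 testis-enriched and 4 widely expressed genes of highest FPKM, the 2 of smallest p per direction and comparison, and the extremes of the ratio of group means. Of the pathway lists the gene of smallest p per direction was taken. Adam5, Adam8, Adam24 and further members outside this rule were picked with their values in view. The split by coding exons and zinc motif was made after the fold changes were known. The members and lists were chosen with earlier results of these data known. The alternatives were RLE size factors, total counts, no filter, a replicate block, fits of 6 libraries, each library left out, 2 libraries left out together, DESeq2 1.42.0, limma-trend (limma 3.58.1) on log2(FPKM + 0.1), keeping genes that reached 0.5 FPKM in 3 libraries, and both vector controls as the control. Scripts were tested on simulated data (Python 3.11.15, pandas 2.3.3, biopython 1.88).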

Additional observations from a re-analysis of the deposited data

How the results depend on the processing

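The 60 fold changes the text names for members, list genes and markers were each recomputed under 18 to 21 alternatives, which gave 1223 values, of which 1190 kept direction and side of the threshold, 4 crossed into the threshold, 20 fell out of it (13 of Spo11 and 7 of Spint3 in overexpression against 5NC) and 9 reversed. Those that crossed were Adam1a in overexpression against 5NC (0.34, adjusted p = 0.0464) and Adam7 there (adjusted p = 0.0388) without 3NC replicate 2 and knockdown replicate 1, and Adam7 without knockdown replicate 1 and by DESeq2. Those that reversed were the difference of the effects for Adam7 (-1.91 without knockdown replicate 1 to 5.49 with 1 library left out, -1.58 without both libraries), Lgi2 in overexpression against 5NC (0.01 without overexpression replicate 1, down to -0.22) and Timp1 in 5NC against 3NC (0.21 without 3NC replicate 2, down to -2.87, and 0.21 without both libraries). With 1 library left out, Adam17 with knockdown ranged from -0.41 to 0.090 (without 3NC replicate 2), Adam3 with knockdown from -0.17 to 0.0064 (without 3NC replicate 3) and Adam12 with overexpression from -0.38 to 0.11 (without overexpression replicate 1; 0.041 without 5NC replicate 1). The cause was not tested.

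Genes called for knockdown, 0 in the main fit, were 16 by DESeq2 and 7 with both controls. For overexpression, 51 became 328 by DESeq2, 82 by limma-trend on FPKM, 107 with 6 libraries, 12 with both controls and 159 without both libraries. For 5NC against 3NC, 21 became 173 by DESeq2, 7 with 6 libraries, 33 with total counts and 45 without both libraries. For the difference of effects, 4 became 42 by DESeq2, and for any difference, 39 became 574 by DESeq2, 64 with total counts and 67 without both libraries. Members called for overexpression were 1 by DESeq2 and 2 without both libraries. Leaving out 1 library gave 0 to 12 genes for knockdown (12 without 3NC replicate 3), 9 to 87 for overexpression (9 without 5NC replicate 2 or 3, 87 without 3NC replicate 3), 3 to 35 for 5NC against 3NC (3 without 5NC replicate 3, 35 without 3NC replicate 2), 2 to 10 for the difference and 6 to 81 for any difference, and 0 to 1 members for overexpression and 0 to 0 in the other comparisons.

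Median log2 fold changes of testis-enriched members lay between -0.19 and 0.04 (knockdown), 0.14 and 0.29 (overexpression), -0.40 and -0.071 (5NC against 3NC) and -0.43 and -0.12 (difference) with 1 library left out. Over members with no shared stretch they were -0.048 (overexpression), 0.0068 (5NC against 3NC) and -0.11 (difference). Total counts shifted the median of all genes by less than 0.1. Per kilobase of GENCODE exons, an alternative added after the data were seen because the RefSeq length planned is a genomic span, the widely expressed median was 3.00 in place of 5.65 and the testis-enriched median 31.9 in place of 35.1. With 1 library left out, that median was 5.35 to 5.76 FPKM and that of the testis-enriched class 34.3 to 35.8 FPKM.

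Deviations of same-numbered libraries from their group means had r of -0.641 to 0.386 over 18 pairs, with a median of -0.00374. This cannot decide whether the numbers pair the libraries, because no spread of r without pairing was set beside it. With the replicate number as a block, 21 genes were called for overexpression, 5 for 5NC against 3NC, 2 for the difference and 7 for any difference, and 0 members in any comparison. Under the block the calls of Spo11 and Spint3 were lost.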
